A study of Homo sapiens with 6 samples.

Results

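Interferon-stimulated genes are the genes that cells switch on in answer to interferons, and 47 of them, all standard members of the response, were followed in melanoma cells with and without extra HMGB2. They were chosen by name and by no threshold on a measured value, though with earlier results of these data known. All 47 were found among the 58302 gene IDs of the count tables. Expression was measured by poly(A) RNA sequencing of A375, an established human melanoma line. A control group of 3 libraries (EV1, EV2 and EV3) came from cells stably carrying an empty vector, and 3 libraries (OE1, OE2 and OE3) came from cells with stable overexpression of HMGB2, a chromatin protein that bends DNA. By the study's methods the lines were made with lentivirus, added with polybrene, and selected with blasticidin or puromycin, without saying which antibiotic was used for these lines. No treatment is named in the labels of either group. Its reporting form calls the replicates of RNA sequencing technical, so each p-value below measures the spread between pellets of 1 line and not between independent transductions.

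Type I interferons bind the receptor chains IFNAR1 and IFNAR2, the kinases JAK1 and TYK2 phosphorylate STAT proteins, and a complex that holds STAT2 and IRF9 binds the interferon-stimulated response element (ISRE) of target promoters. Type II interferon has its own receptor and acts at the gamma-activated sequence (GAS). The products of the target genes sense viral RNA, cut it, block its translation, stop virions from entering or leaving the cell, or attach the ubiquitin-like protein ISG15 to other proteins. In melanoma these genes are also read as a sign of signalling by interferon from immune cells, which a pure culture lacks.

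Reads assigned to genes numbered between 45925053 and 56755212 a library. HMGB2 itself had normalized counts (counts divided by the library's DESeq2 size factor) of 7250, 7729 and 7562 in EV1, EV2 and EV3 and of 15095, 16848 and 14609 in OE1, OE2 and OE3, which DESeq2 put at a log2 fold change of 1.05 with SE 0.10 (adjusted p = 4.4e-22), in the direction the labels give. Of the lineage markers of the line, S100B, MITF and CSPG4 were well expressed, and the pigment genes TYR, MLANA, DCT and TYRP1 were low, at a mean of under 15 normalized counts in either group. The pigment gene PMEL and the lineage factor SOX10 could not be read from the column counted, which kept 3.37% of the 10158 stranded reads of PMEL and 0 of the 253416 of SOX10. The pan-leukocyte gene PTPRC was at 0 in all libraries, and the 6 leukocyte markers summed to between 499 and 705 normalized counts, nearly all of them LYZ. CSPG4 fell (-0.63, SE 0.21, DESeq2 adjusted p = 0.045, not called by edgeR), and none of the 17 other markers tested was called (1 higher and 1 lower at an unadjusted p under 0.05), although the keratin gene KRT5 had 5.05 and 11.5 normalized counts in EV1 and EV2 and between 200 and 289 in the other libraries. Their part in the results below was not tested. In bulk RNA a change in the number of cells that express a gene and a change in its RNA per cell cannot be told apart.

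A small set of interferon-stimulated genes rose with HMGB2 overexpression while most of the list did not pass the test. IFIT1, IFITM1, BST2, OAS2 and PARP9 rose and HERC5 and IFI35 fell, at a DESeq2 adjusted p under 0.05 over all genes tested. Of the 45 members that received an adjusted p, 11.1% were thus called higher and 4.44% lower, against a background of 2.29% called higher and 2.64% called lower among all 18836 genes tested (4.94% called in either direction, against 15.6% of the members). These counts depended on the fit and on the libraries. EdgeR called 2 members higher and 0 lower, with 215 higher and 255 lower among all genes. Without OE1, DESeq2 called 1 member higher and 0 lower, with 185 higher and 256 lower among all genes. In the main fit the other 38 tested members were not called, and XAF1 and IRF9 had too few counts for an adjusted p. The rises lay between 0.39 and 1.13 on the log2 scale and the falls at -0.35 and -0.50.

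The list as a whole lay slightly above 0. Of the 43 members whose normalized count averaged at least 10, 29 (67.4%) had a log2 fold change above 0 and 14 below, with a median of 0.10, whereas 49.8% of all 16692 genes with that mean lay above 0, with a median of -0.00098. Interferon-stimulated genes outside the list, part of the pathway genes described below, went the other way. Of the 29 with that mean, 12 (41.4%) lay above 0 and 17 below, with a median of -0.02, and 0 were called higher and 1 lower. In 10 of the 43 the overexpression libraries all lay above the empty vector libraries, against 11.4% of all genes, and in 4 they all lay below, again against 11.4%. Together 32.6% of the members did not overlap between groups. Among all 16692 genes, 1911 lay wholly above and 1899 wholly below, 11.4% each. The members are described by what their products do.

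**Figure D1:**
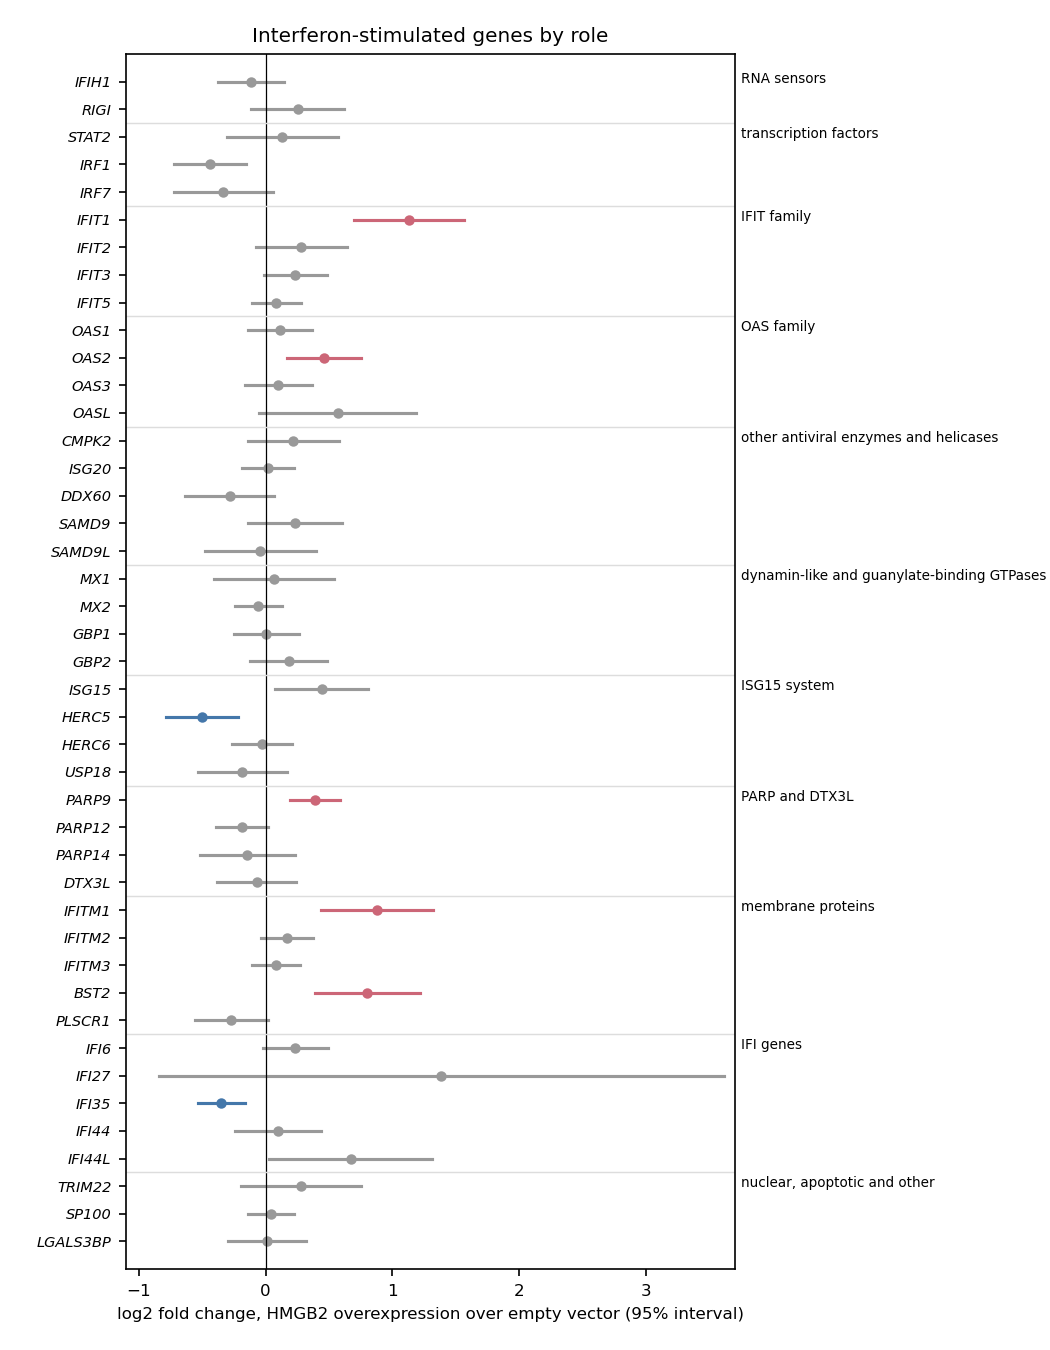
Log2 fold change of HMGB2 overexpression over empty vector (horizontal axis) for the 43 members averaging at least 10 normalized counts, ordered by role; points are DESeq2 estimates, bars their 95% intervals, red marks members called higher, blue those called lower and grey those not called. The 5 red and 2 blue members are spread over 6 roles, and IFI27 has by far the widest interval, from -0.84 to 3.61.

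The IFIT proteins bind viral RNA that lacks a host cap and keep it from being translated. IFIT1 (ENSG00000185745; hg38 chromosome 10, 89392546 to 89406487, plus strand) showed the largest called change of the list. Its normalized counts were 132, 110 and 153 in EV1, EV2 and EV3 and 360, 240 and 263 in OE1, OE2 and OE3. The groups did not overlap, and OE1 stood highest. The mean rose from 132 ± 21.8 to 288 ± 63.3 (SD, n = 3 each), and DESeq2 gave a log2 fold change of 1.13 with SE 0.22 and an adjusted p of 3.03e-05. IFIT1 was called in all 15 alternative fits, with values from 0.94 to 1.31, the lowest being that without OE1. Upstream of its RefSeq start site a search by letters found a pair of ISRE matches, printed here in capitals (GRCh38.p14 chr10:89392499-89392537, plus strand, outside annotated exons).
IFIT1: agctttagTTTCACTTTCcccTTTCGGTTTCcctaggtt

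The other members of the family lie within 138 kb of chromosome 10 with IFIT1, and none of them was called. IFIT3 had 381, 407 and 390 normalized counts with the empty vector and 476, 452 and 457 with overexpression, which gave a log2 fold change of 0.23 with SE 0.13 (DESeq2 adjusted p = 0.40). Its groups did not overlap, nor did those of IFIT2, whose log2 fold change was 0.28. IFIT5 had the highest level per length of the family, 365 normalized counts per kb of exon with the empty vector and 387 with overexpression, with overlapping groups and a log2 fold change of 0.08. All 4 members lay above 0 in all 16 fits, main and alternative. These fits reuse the same libraries, so a constant sign is no separate evidence of a rise. IFIT3 carries ISRE matches of the same kind as IFIT1, the first of which is shown for comparison (GRCh38.p14 chr10:89327833-89327858, plus strand). Whether the change of IFIT1 differed from that of its neighbours was not tested.
IFIT3: ccgttaggTTTCATTTTCctcctccc

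The OAS enzymes make 2'-5'-linked oligoadenylates on double-stranded RNA, which activate RNase L. OAS2 (ENSG00000111335; chromosome 12, 112978395 to 113011723, plus strand) had 310, 311 and 293 normalized counts in EV1, EV2 and EV3 and 461, 423 and 370 in OE1, OE2 and OE3. Every overexpression library lay above the empty vector libraries, which lay close together. OAS2 rose by 0.46 on the log2 scale with SE 0.15 (DESeq2 adjusted p = 0.044), near the threshold. It stayed called in 7 of 15 alternatives and was lost under edgeR (adjusted p = 0.086), with TMM factors (0.052), without the independent filter (0.076) and without any 1 library other than EV3 (0.083 to 0.53), always with a rise between 0.38 and 0.54. The neighbours OAS3, with the highest level of the family at 150 and 161 normalized counts per kb, and OAS1, with 35.2 and 38.1, had log2 fold changes of 0.10 and 0.11 and were not called. OASL, a family member without the synthase activity, had 38.4, 35.4 and 51.5 normalized counts against 72.7, 49.2 and 63.0, and its groups overlapped. Its log2 fold change of 0.57 (SE 0.32) was not called (DESeq2 adjusted p = 0.43). The sign was the same in all 16 fits, which reuse the same libraries. OAS1 kept 65.6% of the reads that the stranded columns give it.

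Membrane proteins of the response held 2 of the 5 rises. The IFITM proteins sit in the plasma and endosomal membranes and hinder fusion of incoming viruses. IFITM1 (ENSG00000185885; chromosome 11, 310041 to 315272, plus strand) had 92.9, 119 and 73.0 normalized counts in EV1, EV2 and EV3 and 180, 175 and 170 in OE1, OE2 and OE3. The overexpression libraries lay close together, all above the empty vector libraries, of which EV2 came nearest. IFITM1 rose by 0.88 on the log2 scale with SE 0.23 (DESeq2 adjusted p = 0.0041), and edgeR called it as well (adjusted p = 0.044). It was lost without EV1 (0.087), OE1 (0.10), OE2 (0.081) or OE3 (0.053), with log2 fold changes of 0.86, 0.86, 0.88 and 0.90. Of the 50-base words of IFITM1, 29.8% also occur in other genes, other genes, 1 on the same and 1 on the opposite strand, overlap 31.6% of its exon bases, and reads that fit several places were counted for none.

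IFITM3 and IFITM2 lie within 25.8 kb with IFITM1 and were far more abundant. IFITM3 had 3952 normalized counts per kb with the empty vector and 4189 with overexpression, IFITM2 1189 and 1335, and IFITM1 56.9 and 105. IFITM3 had 11503, 11484 and 10735 normalized counts against 12334, 12251 and 11156, a log2 fold change of 0.08 (SE 0.10), and IFITM2 had 2013, 1872 and 1842 against 2196, 2242 and 1994, a log2 fold change of 0.17 (SE 0.11). Neither was called and both overlapped between groups. The called and the uncalled member are printed together, each with its ISRE matches in capitals (IFITM1 GRCh38.p14 chr11:313992-314017, plus strand, 21 bases of it inside an annotated exon; IFITM3 chr11:320878-320920, minus strand, outside exons).
IFITM1: aacagcagGAAATAGAAActtaagag
IFITM3: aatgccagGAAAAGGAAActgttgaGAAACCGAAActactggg

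BST2, or tetherin, anchors budding virions to the cell surface. It (ENSG00000130303; chromosome 19, 17402939 to 17405630, minus strand) had 219, 198 and 210 normalized counts in EV1, EV2 and EV3 and 478, 290 and 326 in OE1, OE2 and OE3. All overexpression libraries lay above the empty vector libraries, and OE1 stood well above OE2 and OE3. BST2 rose by 0.80 on the log2 scale with SE 0.21 (DESeq2 adjusted p = 0.0055). Without OE1 it was 0.56 and not called (adjusted p = 0.19), without EV2 it was 0.76 (0.069), and edgeR did not call it (0.066). The last membrane protein, the phospholipid scramblase PLSCR1, had a log2 fold change of -0.27 (SE 0.15) and was not called (adjusted p = 0.40), with overlapping groups. With a batch term on the third replicates it passed (-0.26, DESeq2 adjusted p = 0.0034). It also passed with a block on the replicate number, in the GC and length correction and in replicates 1 and 2 alone. Upstream of BST2 a GAS match runs into overlapping ISRE matches, all in capitals (GRCh38.p14 chr19:17405741-17405770, minus strand, within an annotated exon).
BST2: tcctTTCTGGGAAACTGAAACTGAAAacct

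Of ISG15 and the enzymes that join it to proteins or remove it, 1 fell and the others were not called. HERC5, the main ligase that attaches ISG15 in human cells (ENSG00000138646; chromosome 4, 88457119 to 88506163, plus strand), had 410, 461 and 464 normalized counts in EV1, EV2 and EV3 and 301, 296 and 346 in OE1, OE2 and OE3. The groups did not overlap, all overexpression libraries lying lower. HERC5 fell by 0.50 on the log2 scale with SE 0.14 (DESeq2 adjusted p = 0.015). It was no longer called by edgeR (adjusted p = 0.058) or without EV1 (0.089), EV2 (0.21), OE1 (0.28) or OE2 (0.25), with log2 fold changes from -0.58 to -0.46 over all alternatives.

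ISG15 itself had 260, 233 and 347 normalized counts with the empty vector and 391, 340 and 407 with overexpression. OE2 lay just below EV3, so the groups overlapped, and the log2 fold change of 0.44 (SE 0.19, 95% interval 0.08 to 0.81) was not called (DESeq2 adjusted p = 0.19). Without EV3 it was 0.63 and called (adjusted p = 0.0030), and a batch term on the third replicates (0.017) and replicates 1 and 2 alone (0.018) also called it. USP18, which removes ISG15 from proteins and damps the type I receptor, had 551, 454 and 697 normalized counts against 510, 449 and 539, a log2 fold change of -0.18 (SE 0.18), and 23.1% of its 50-base words occur in other genes. HERC6, the neighbour of HERC5, had a log2 fold change of -0.03 (95% interval -0.26 to 0.21). The promoters of ISG15 and HERC5 both hold overlapping ISRE matches, although only HERC5 was called and it was lower, and they are shown side by side (ISG15 GRCh38.p14 chr1:1013376-1013407; HERC5 chr4:88456986-88457017 and chr4:88457037-88457062; plus strand, outside exons).
ISG15: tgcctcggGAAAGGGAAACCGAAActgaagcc
HERC5, first: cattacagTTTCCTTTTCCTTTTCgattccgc
HERC5, second: acattatgTTTCGTTTTCcactggag

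PARP9 and DTX3L work as a pair, PARP9 being an ADP-ribosyltransferase family member that binds the ubiquitin ligase DTX3L. PARP9 (ENSG00000138496; chromosome 3, 122527924 to 122564577, minus strand) had 1101, 1094 and 1123 normalized counts in EV1, EV2 and EV3 and 1495, 1436 and 1412 in OE1, OE2 and OE3. The 3 libraries of each group lay close together and far from the other group. PARP9 rose by 0.39 on the log2 scale with SE 0.10 (DESeq2 adjusted p = 0.0040). The size barely moved among alternatives (0.35 to 0.42), but edgeR gave an adjusted p of 0.0503, and the call was lost without EV1 (0.17), EV2 (0.14), OE1 (0.26), OE2 (0.15) or OE3 (0.090).

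A start site of PARP9 lies 38 bases from that of DTX3L, which is read in the opposite direction. DTX3L had 1636, 1797 and 1313 normalized counts against 1630, 1620 and 1267, a log2 fold change of -0.07 (SE 0.16, 95% interval -0.38 to 0.24), with overlapping groups. PARP12, on chromosome 7, had 1501, 1417 and 1590 against 1333, 1330 and 1299, and every overexpression library lay below, but the log2 fold change of -0.19 (SE 0.10) was not called (DESeq2 adjusted p = 0.42). PARP14, near PARP9, had a log2 fold change of -0.14 and was low in EV3 and OE3, which carry the same replicate number. Whether PARP9 differed from DTX3L in its change was not tested. An ISRE match upstream of this start site of PARP9, which runs across the start site of DTX3L, is shown as it reads on the strand of PARP9 (GRCh38.p14 chr3:122564324-122564349, minus strand, 12 bases of it inside an annotated exon).
PARP9: gcgcaaagTTTCAGTTTCgcttccct

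The IFI genes are grouped by name more than by function. IFI35, a partner of NMI in the cytoplasm (ENSG00000068079; chromosome 17, 43006740 to 43014456, plus strand), had 3721, 3520 and 3764 normalized counts in EV1, EV2 and EV3 and 2914, 2772 and 2960 in OE1, OE2 and OE3. The groups were well apart, overexpression being lower. IFI35 fell by 0.35 on the log2 scale with SE 0.09 (DESeq2 adjusted p = 0.0074), and its log2 fold change lay between -0.38 and -0.31 in all 15 alternatives. It was no longer called by edgeR (adjusted p = 0.065) or without EV1 (0.23), EV2 (0.082), OE1 (0.23), OE2 (0.25) or OE3 (0.11). IFI35 was among the most abundant members, with 1873 normalized counts per kb with the empty vector and 1472 with overexpression. Its promoter holds no ISRE match in the window searched but a GAS match (GRCh38.p14 chr17:43006754-43006778, plus strand, within an annotated exon).
IFI35: gcagggatTTCACGGAAatgaaagt

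The other IFI genes were not called. IFI6, which guards the endoplasmic reticulum and mitochondria against viruses and cell death, had 1160, 1207 and 1349 normalized counts with the empty vector and 1650, 1366 and 1354 with overexpression, groups that did not overlap by a narrow margin. DESeq2 gave it a log2 fold change of 0.23 with SE 0.13 (adjusted p = 0.42), and 16.4% of its 50-base words occur in other genes. IFI44, with 634 and 678 normalized counts per kb, had a log2 fold change of 0.10 and was highest in EV3 and OE3. IFI44L, its neighbour, had 61.6, 55.8 and 89.1 normalized counts against 143, 67.0 and 118, so that OE2 stayed within the range of the empty vector libraries, and its log2 fold change of 0.67 (SE 0.33) was called only in the fit without EV3 (0.90, DESeq2 adjusted p = 0.046).

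**Figure D2:**
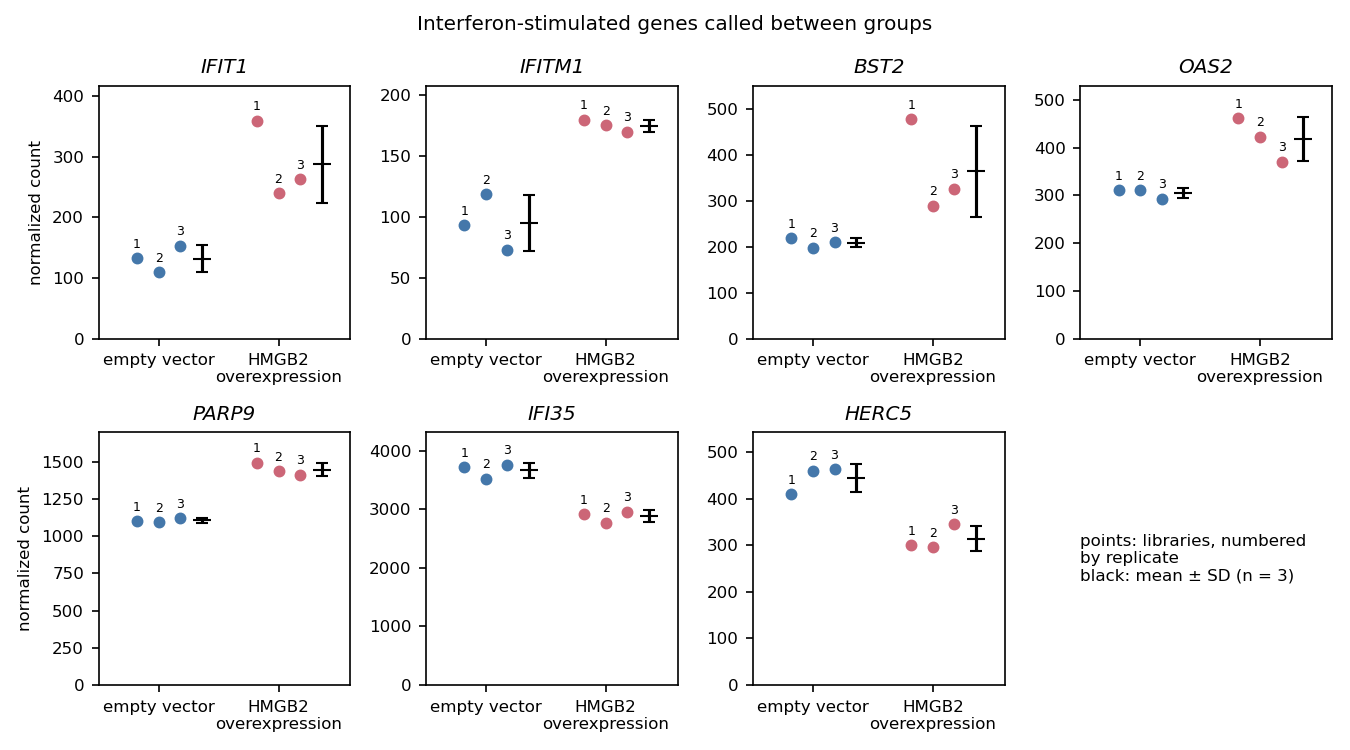
Normalized counts (vertical axes, from 0, each gene on its own scale) of the 7 called members in each library; blue points are empty vector and red points HMGB2 overexpression libraries, numbered by replicate, and black marks give mean ± SD (n = 3). No gene overlaps between groups, and OE1 stands apart from the other overexpression libraries in IFIT1 (360 against 240 and 263) and BST2 (478 against 290 and 326).

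The sensors and transcription factors of the response included no called gene. RIGI and IFIH1 (MDA5), the helicases that detect viral RNA in the cytoplasm, had log2 fold changes of 0.25 (SE 0.19) and -0.12 (SE 0.13). RIGI had 188, 249 and 229 normalized counts against 303, 229 and 261, with 42.5% of its 50-base words shared with other genes, and IFIH1 had 449, 452 and 398 against 404, 409 and 386. Both overlapped between groups. STAT2, a part of the ISRE-binding complex, had 1078, 1160 and 618 normalized counts against 1078, 1180 and 869, with the third replicates lowest in both groups, and a log2 fold change of 0.13 (SE 0.22). IRF7, the amplifier of interferon production, had 299, 236 and 209 against 223, 171 and 197, a log2 fold change of -0.33 (SE 0.20). No sensor reached an unadjusted p under 0.05 in DESeq2 or edgeR, and of the transcription factors 1 did in each tool.

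That gene was IRF1, which was picked out after its values were seen. IRF1 acts at the promoters of many interferon-stimulated genes, often downstream of type II interferon. It had 521, 509 and 465 normalized counts with the empty vector and 398, 384 and 322 with overexpression, every overexpression library lying below. The log2 fold change of -0.44 (SE 0.15) just missed the threshold (DESeq2 adjusted p = 0.0525). It passed in 6 of the 15 alternatives, among them the sum of the stranded columns (-0.50, adjusted p = 0.0011), a batch term on the third replicates (-0.44, 0.0043) and the fit without EV3 (-0.48, 0.014). IRF1 kept 54.2% of its stranded reads, and genes on the opposite strand overlap 22.9% of its exon bases. IRF9 had between 1 and 4 counts in a library and kept 100% of its 12 stranded reads. The stranded columns also set aside reads that fit several genes on the same strand, so this share does not measure such losses. Of its 50-base words, 20.1% occur in other genes. Other genes, 1 on the same strand and 1 on the opposite strand, overlap 27.2% of its exon bases, and the part of this in the low counts was not tested.

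The remaining enzymes, GTPases and nuclear proteins were not called, and none of them had an unadjusted p under 0.05 in DESeq2 or edgeR. ISG20, an exonuclease that degrades RNA, had 10817, 9747 and 11488 normalized counts against 10436, 10891 and 11155, a log2 fold change of 0.02 (SE 0.10, 95% interval -0.18 to 0.22). SAMD9, which restrains growth and viral translation, had 863, 979 and 597 against 984, 1042 and 837 (0.23, SE 0.19), and its neighbour SAMD9L had a log2 fold change of -0.04. Both SAMD9 genes were lowest in the third replicates. The nucleotide kinase CMPK2 had a log2 fold change of 0.22 with no overlap between groups, and the helicase DDX60 -0.28 with overlap. RSAD2 (viperin), which lies next to CMPK2, had between 1 and 21 counts in a library and kept 54.2% of its stranded reads.

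The dynamin-like GTPases MX1 and MX2 trap viral particles or block their entry to the nucleus, and the guanylate-binding proteins attack membranes around pathogens. GBP2 had 2147, 2226 and 1669 normalized counts against 2339, 2556 and 1964, a log2 fold change of 0.18 (SE 0.15), and MX2 had 3571, 3604 and 3416 against 3444, 3515 and 3220, a log2 fold change of -0.06 (SE 0.09). GBP1 (0.01, 95% interval -0.25 to 0.26) also overlapped between groups. LGALS3BP, a secreted glycoprotein, was the most abundant member with 7476 normalized counts per kb with the empty vector and 7544 with overexpression, and a log2 fold change of 0.01 (SE 0.16). SP100, of nuclear bodies, had 2241, 2253 and 2194 normalized counts against 2340, 2325 and 2220 (0.04, SE 0.09), and the ubiquitin ligase TRIM22 had a log2 fold change of 0.28. EPSTI1 had between 4 and 13 counts in a library and XAF1, a cofactor of apoptosis, between 0 and 13, with 25.8% of its stranded reads kept.

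**Figure D3:**
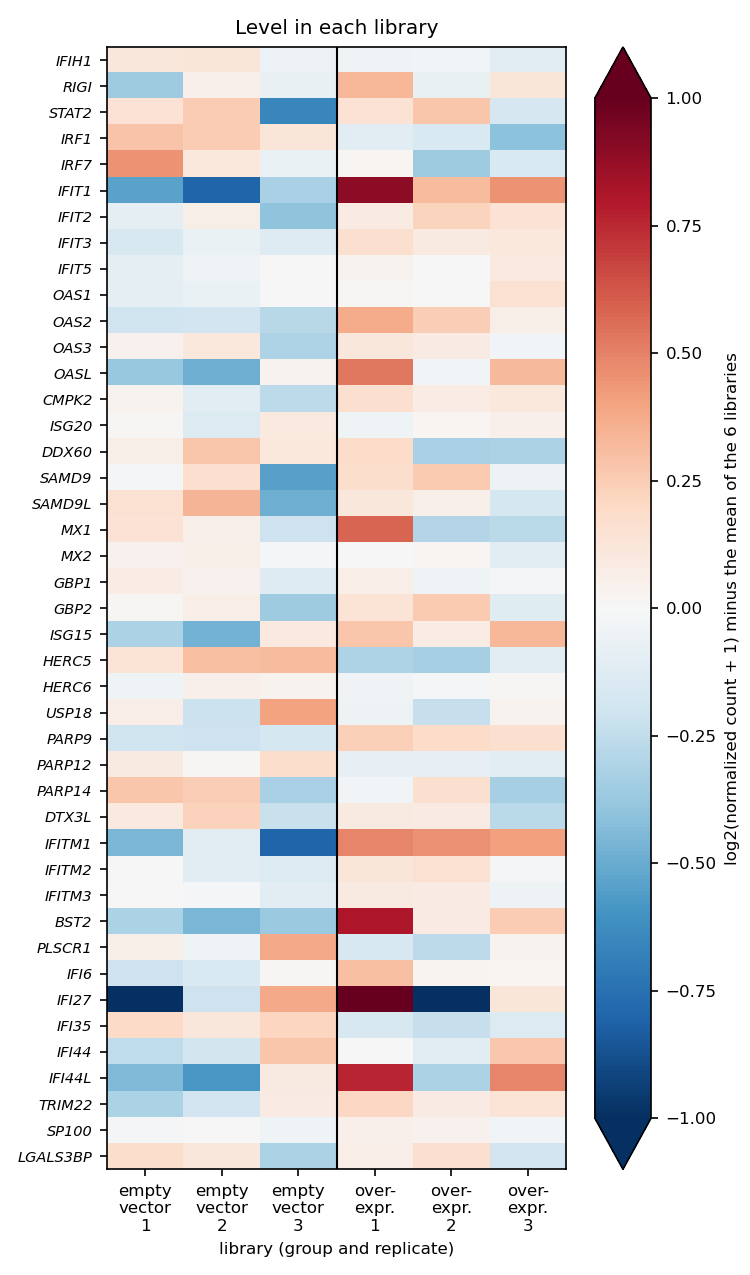
Level of each of the 43 members averaging at least 10 normalized counts in each of the 6 libraries, as log2(normalized count + 1) minus the gene's mean over the libraries (colour scale, capped at -1 and 1), ordered by role; the vertical line separates the groups. OE1 is the reddest column, and it is the highest overexpression library for 24 of the 43 genes.

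The overexpression libraries did not share the same pattern. OE1 was the highest of the 3 for 24 of the 43 members (55.8%), whereas it was highest for 24.1% of all genes with that mean. The median member lay 0.11 above its mean over the 6 libraries in OE1, 0.03 in OE2 and 0.01 in OE3 on the log2(normalized count + 1) scale, and at -0.01, -0.01 and -0.07 in EV1, EV2 and EV3. EV3 was the lowest empty vector library for 48.8% of the members and for 41.8% of all genes. Without OE1 the median log2 fold change of the members was 0.07 and without EV3 it was 0.05.

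IFI27 and MX1, picked out after their values were seen, were high in OE1 alone. IFI27 had 13.1, 23.9 and 36.5 normalized counts with the empty vector and 154, 7.88 and 30.4 with overexpression. Its log2 fold change of 1.39 (SE 1.14) was the highest of the 43 and was not called, and without OE1 it was -0.37. MX1 had 403, 378 and 316 normalized counts against 547, 298 and 303, so that OE2 and OE3 lay below every empty vector library and OE1 above them all. Its log2 fold change was 0.07 and, without OE1, -0.28. MX1 kept 69.9% of its 3282 stranded reads. OE1 had 55476604 assigned reads, fewer than EV2 and more than the others, and its leukocyte markers summed to 534 normalized counts. Their part in its values was not tested.

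**Figure D4:**
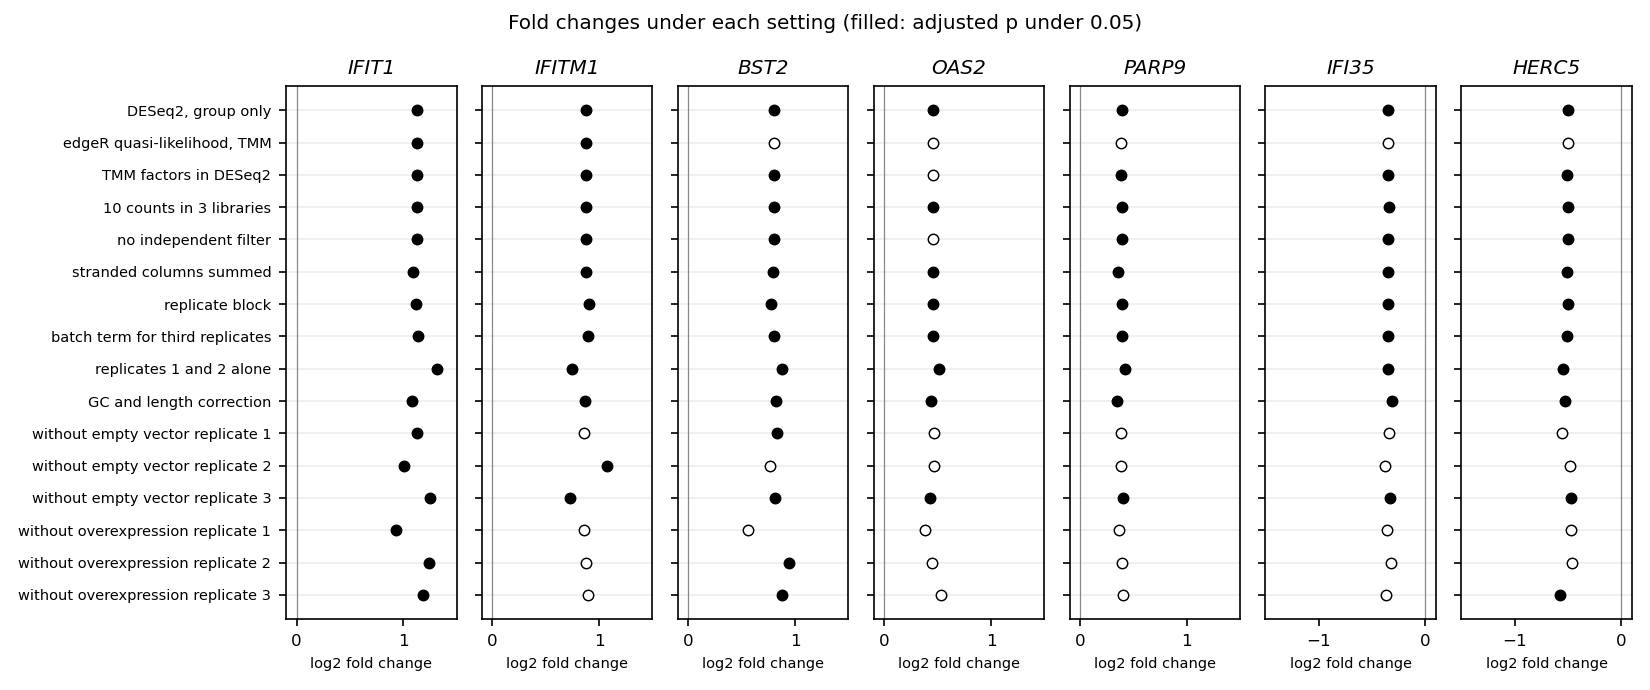
Log2 fold change (horizontal axes, same width for each gene) of the 7 called members in the DESeq2 fit and its 15 alternatives (rows); filled points have an adjusted p under 0.05. All points of a gene stay on 1 side of 0, and IFIT1 alone is filled in every row.

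Of the 38 members with a RefSeq promoter (GRCh38.p14; none matched for IRF7, IFITM2, GBP2, OAS2, TRIM22, IFIT2, OASL, USP18 and MX2), 26 (68.4%) held an ISRE match in the 250 bases before a start site, read on either strand as GAAA, any 2 bases and GAAA, which on the opposite strand gives TTTC, any 2 bases and TTTC. Of all 27305 genes with a promoter, 3.71% did. A GAS match (TTCNNNGAA, the same on both strands) stood in 11 of the 38 (28.9%) and in 8.09% of all genes, and matches of both kinds may overlap, as in BST2. Of the 6 called members with a promoter, 5 held an ISRE match, the exception being IFI35, and they included the falling HERC5 as well as the rising IFIT1, IFITM1, BST2 and PARP9. A match of letters is a description and no measure of binding.

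The 47 members were read beside 100 other genes of the pathway, of which 70 received an adjusted p. No interferon gene was tested: of 21 ligand genes 14, IFNB1 and IFNG among them, were at 0 in all 6 libraries, which allows up to 3 counts in each, and IFNE alone reached a mean above 1. None of the 6 receptor chains was called by DESeq2 or edgeR (1 had an unadjusted p under 0.05 in DESeq2 and none in edgeR). The log2 fold change was 0.07 (95% interval -0.14 to 0.29) for IFNAR1 and 0.03 (-0.34 to 0.39) for IFNAR2. IFNAR2 kept 61.4% of its stranded reads, and other genes overlap 27.7% of its exon bases. Signal transducers were not called either: JAK1 stood at 0.02 (SE 0.16) and TYK2 at -0.08 (SE 0.13). By edgeR none of the JAK-STAT genes was called, and 2 had an unadjusted p under 0.05 in each tool.

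Among genes that sense nucleic acids and induce interferon, STING1 had a log2 fold change of -0.02 (95% interval -0.23 to 0.19), its adaptor counterpart for RNA, MAVS, -0.11 (-0.49 to 0.27), and the DNA sensor CGAS had between 4 and 15 counts in a library. None of the 13 tested genes of that kind was called by either tool (1 higher and 1 lower at an unadjusted p under 0.05 in each). Of all 70 tested pathway genes, 1 rose and 3 fell, 5.71% called in all against 4.94% of all genes. The guanylate-binding GBP4, a low gene, rose from 7.07, 4.43 and 4.29 to 25.4, 21.7 and 13.5 normalized counts (1.95, SE 0.63, DESeq2 adjusted p = 0.045), a call kept in 4 of the 12 alternatives that tested it and lost without any 1 library (0.070 to 0.47). WARS1, the cytosolic tryptophanyl-tRNA synthetase, fell from 28859, 28342 and 21324 to 15348, 13473 and 10515 (-0.997, SE 0.17, DESeq2 adjusted p = 7.36e-07), called in all 15 alternatives.

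CIITA, the master regulator of MHC class II genes, fell from 1891, 1787 and 1255 to 1037, 1063 and 755 (-0.79, SE 0.19, DESeq2 adjusted p = 0.0017), and the call was lost under edgeR (0.060) and without EV1 (0.059). The nucleotidase NT5C3A fell by 0.37 on the log2 scale (SE 0.12, DESeq2 adjusted p = 0.040), a call kept in 8 of 15 alternatives and lost, among others, without any 1 library other than EV3 (0.083 to 0.40). WARS1, CIITA and GBP4 belong to the genes that type II interferon induces, and the median log2 fold change of the 67 pathway genes with a mean of 10 or more was -0.01. The 11 interferon-gamma-type targets tested included 1 rise and 2 falls, where 2.29% of all genes rose and 2.64% fell.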

How the data were processed

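RNA of 6 A375 libraries was selected by poly(A) tail and sequenced. The authors ran FastQC and Trimmomatic on the reads before alignment to hg38 (bcl2fastq 2.20 and STAR are named in the submitters' processing notes). The authors deposited raw counts per gene, whole numbers without normalization, in the STAR layout. The annotation release was not given in the sources used here. The column for either strand was used, in which reads in several genes, on either strand, are set aside as ambiguous (10.7% to 11.4% of reads), as are multimapped reads (2.58% to 10.6%, highest in OE3). Summary lines were left out.

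Symbols came from GENCODE 44 (57532 of 58302 IDs matched; the rest held 0.0575% of counts). All genes were tested together with DESeq2 1.42.0 in R 4.3.3 (defaults, Wald test on the group, Benjamini-Hochberg adjusted p under 0.05). Fold changes are unshrunken. An adjusted p was given to 18836 of the 32925 genes that had any count. The script was tested on simulated data. Alternatives were edgeR 4.0.16 (quasi-likelihood, TMM), DESeq2 with TMM factors, a minimum of 10 counts in 3 libraries, DESeq2 without its independent filter, the stranded columns summed, a block on the replicate number, a batch term for the third replicates, replicates 1 and 2 alone, a correction for GC content and length, and leaving out each library in turn. The members and lists were chosen with earlier results of these data known. Named were all 47 members by role, called members in full, the 2 other members of each role with the highest normalized count per kb (of those with a mean of 10 or more), called genes of the pathway, and 9 fixed pathway genes, of which IFNB1, IFNAR1, IFNAR2, JAK1, TYK2, CGAS, STING1 and MAVS are given and 1 is not reported here.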

Additional observations from a re-analysis of the deposited data

How the results depend on the processing

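Every called member kept its direction in all 15 alternatives, and IFIT1 kept its call in all of them. The alternatives reuse the same libraries, so a constant direction is no separate evidence. Members called higher and lower numbered 5 and 2. EdgeR called 2 higher and 0 lower (8 higher and 3 lower at an unadjusted p under 0.05), 1 lower pathway gene, and 215 higher and 255 lower genes in all, each fewer than DESeq2. Without the independent filter, and with the stranded columns summed, 0 pathway genes were called higher. The batch term for the third replicates gave 4 lower members, 4 higher and 7 lower pathway genes, and 1374 higher and 1359 lower genes in all. Replicates 1 and 2 alone gave 3 higher and 10 lower pathway genes, and 1203 higher and 1418 lower genes in all. The GC and length correction gave 4 lower members and 3 higher pathway genes. The causes of these shifts were not tested.

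Leaving out 1 library at a time gave 1 to 7 higher and 0 to 3 lower members, 0 to 2 higher and 1 to 10 lower pathway genes, and 155 to 1334 higher and 208 to 1520 lower genes in all. Without OE1 the list was left with 1 higher member, IFIT1, and without EV3 it held 7 higher and 3 lower. The median log2 fold change of the members ranged from 0.05 to 0.13.

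Replicate numbers 1 and 2 did not pair the samples, but the third replicates went together. Deviations from the group means correlated at 0.0906, 0.142 and 0.349 for numbers 1, 2 and 3 (16692 genes). OE1 correlated at 0.101 with EV2, and OE2 at 0.212 with EV1. OE3 correlated at -0.272 with EV1 and -0.217 with EV2, and EV3 at -0.137 with OE1 and -0.253 with OE2. A gene's deviations cancel out within a group, so the positive value for number 3 brings negative values with it. These are therefore no separate evidence. The main fit had no term for the third replicates. With the replicate block, members called lower numbered 4, pathway genes called lower 5, and all genes called 886 higher and 940 lower. At 3 libraries a group, technical replicates of 1 line, all called members other than IFIT1 lost their call without at least 1 library, and some genes kept only a part of their stranded reads.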
